A study of Mus musculus with 12 samples.

Results

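The proteasome is the protein machine that degrades proteins tagged with ubiquitin, and its subunits are encoded by the Psm genes. Genes were taken by symbol: 49 of 22180 genes with a single symbol in the probe annotation carried the letters Psm, a subunit letter from a to g and a number. Of these, 47 are proteasome genes, namely 15 genes of the 20S core, 3 immunoproteasome genes, 20 genes of the 19S regulatory particle and 9 genes of activators, an inhibitor and assembly factors. The other 2 matches, Psmc3ip and Psme3ip1, encode binding partners whose symbols only begin alike, and were left out of the groups. Where several probesets measured a gene, the one with the highest mean over all arrays stood for it.

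Nucleus accumbens (NAC), a ventral striatal region of the reward circuit, was punched from outbred hsd:ICR adult female mice, and RNA of 12 mice went onto Mouse Gene 2.0 ST arrays, with each mouse on its own array. The postpartum group held 6 lactating dams collected on day 7 after birth with litters of 11 pups, and the virgin group held 6 females of matched age that had been housed with other females in place of a male and were collected in diestrus. No transgene or drug treatment is described, and mice of both groups were lightly anesthetized with isoflurane before decapitation. All were housed singly from the end of the mating period. The values are PLIER intensities, a normalized brightness per probeset on a linear scale, and every fold change below is postpartum over virgin on the log2 scale.

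In background terms, the 20S core is a barrel of stacked rings. The alpha subunits (Psma) form the outer rings and the gate, and the beta subunits (Psmb) form the inner rings, in which Psmb5, Psmb6 and Psmb7 cut the peptide chain. Under interferon, Psmb8, Psmb9 and Psmb10 take the places of Psmb5, Psmb6 and Psmb7 and shift the cut peptides toward those shown on MHC class I. The 19S particle caps the barrel, where the Psmc ATPases unfold the substrate and the Psmd subunits bind ubiquitin and remove it. In neurons the proteasome takes part in turnover of synaptic proteins, and in many cell types its genes are transcribed together under the transcription factor NRF1 (gene Nfe2l1) when degradation falls short.

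Promoter windows are shown as a description, and the relation of their strings to the array values was not tested. RefSeq promoter windows (build GRCm38.p6, 250 bases before to 50 bases after the gene start) were matched to 39 of the 47 genes, giving 42 windows, and 8 genes had no entry (Psma8, Psmb1, Psmb2, Psmb7, Psmc3, Psmd3, Psmd7 and Psmg2). Windows were searched on both strands for short strings. The ETS core CCGGAAG stood in 14 of the 39 genes (35.9%) against 9.93% of all 27025 genes with a window. The antioxidant response core TGACNNNGC, which the NRF1 family recognizes, stood in 6 of 39 (15.4%) against 14% of all genes, namely in Psmb5, Psmb6, Psmc6, Psmd9, Psmd12 and Psme4. The interferon response repeat (GAAA, any 2 bases, GAAA) stood in 5 of 39 (12.8%) against 3.99%, and the STAT string TTCNNNGAA in 3 of 39 (7.69%) against 9.55%. Strings may overlap other motifs, and a match describes letters, not a site in use.
The windows of 3 genes follow, 5′ to 3′ on the gene's strand. Psmd4 is the only member that passed a threshold in the main limma fit on log2 intensities. Psmb6 is a catalytic subunit with the antioxidant string, and Psmb8 is an immunoproteasome subunit with the STAT string. Capitals in Psmd4 (chr3:95042565-95042864, minus strand) mark the ETS core, 125 bases before the start, and the interferon repeat on the opposite strand, 80 bases before it. Capitals in Psmb6 (chr11:70525107-70525406, plus strand) mark the antioxidant string, 9 bases before the start, and capitals in Psmb8 (chr17:34197945-34198244, plus strand) mark the STAT string, 97 bases before it.
Psmd4: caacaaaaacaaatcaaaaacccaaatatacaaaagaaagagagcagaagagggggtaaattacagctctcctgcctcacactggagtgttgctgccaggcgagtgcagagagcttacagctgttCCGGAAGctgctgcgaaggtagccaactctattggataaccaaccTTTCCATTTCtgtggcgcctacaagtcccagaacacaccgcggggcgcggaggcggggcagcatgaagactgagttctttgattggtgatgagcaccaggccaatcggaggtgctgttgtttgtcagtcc
Psmb6: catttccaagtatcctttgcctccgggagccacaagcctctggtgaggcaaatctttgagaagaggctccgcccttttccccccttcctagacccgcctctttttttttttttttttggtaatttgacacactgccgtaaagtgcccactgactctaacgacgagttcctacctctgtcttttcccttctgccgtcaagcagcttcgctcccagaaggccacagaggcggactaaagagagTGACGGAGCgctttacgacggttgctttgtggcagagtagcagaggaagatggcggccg
Psmb8: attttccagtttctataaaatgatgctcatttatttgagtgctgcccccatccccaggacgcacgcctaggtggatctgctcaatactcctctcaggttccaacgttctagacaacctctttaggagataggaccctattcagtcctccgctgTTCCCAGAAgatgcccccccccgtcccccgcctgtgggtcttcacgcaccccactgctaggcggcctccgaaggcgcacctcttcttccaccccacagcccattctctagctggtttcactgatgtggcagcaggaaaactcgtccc

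Arrays were alike, with Spearman correlations across probesets of 0.976 to 0.990 and median intensities of 153 to 165. One array stood apart for the proteasome genes. Virgin replicate 5, which had the highest array median, gave the lowest of the 12 values for 23 of the 42 members above the series median (54.8%), while it gave the lowest value for 17.6% of all genes above that median. Counts and group medians are given with and without it. The tissue was a punch of mixed cells, so fewer cells of a type and less RNA per cell cannot be told apart. The 8 measured markers of striatal projection neurons all lay above the series median, and all 8 had a lower mean in the postpartum group (median log2 fold change -0.16). For the marker lists, the share of genes with a higher mean in postpartum was 47.9% of all annotated genes. It was 55.6% of annotated genes above the series median. At limma p under 0.01, 1 of the 8 fell, against 1.08% of all genes. It was Rgs9, a striatal signalling regulator, at -0.26 (p = 0.00799 by limma, exact permutation p = 0.0108). The dopamine receptor gene Drd1 was -0.34 (exact permutation p = 0.0346). The summed intensity of these markers was 17916 to 22176 in postpartum and 20548 to 23785 in virgin arrays, and its part in the proteasome values was not tested. Other marker lists also had medians away from 0. The 3 measured cortical glutamatergic markers were all positive (median 0.21) and the 3 measured choroid plexus markers were all negative (median -0.28), and 0 of either list passed p under 0.05 by limma or by exact permutation. The medians were -0.10 over 7 oligodendrocyte, 0.03 over 9 endothelial and 0.06 over 7 astrocyte markers. At limma p under 0.01, 1 oligodendrocyte marker (Opalin) was lower and 1 endothelial marker (Ly6c1) was higher, against 1.08% and 1.72% of all genes. Ly6c1 was dim, below the series median, with virgin intensities of 13.9 to 51.8. The part of these cell types in the proteasome values was not tested.

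Proteasome transcripts showed no large difference between postpartum and virgin NAC. At the study's threshold of limma p under 0.01 on log2 intensities, 0 of 47 members were above and 0 below virgin levels in postpartum NAC, where the shares among all annotated genes were 1.72% above and 1.08% below. At p under 0.03, the study's second threshold, Psmd4 was the 1 member that was higher and there were 0 lower members, against 3.68% and 2.89% of all genes. At p under 0.05 the counts were again 1 and 0, against 5.22% and 4.70%. The lowest p adjusted over all 41345 probesets among the members was 0.486, and over all probesets it was 0.106.
By a two-sided exact permutation test of each gene over the 924 splits of the arrays, whose smallest possible p is 0.00216, 4 members were higher at p under 0.05 and 0 were lower, against 6.56% and 4.89% of all genes. All 4 were 19S genes, namely Psmd4, Psmd8, Psmc4 and Psmd11. Without virgin replicate 5 this count was 3, and without virgin replicate 3 it was 8. Shares of all genes were not computed with these arrays left out.
The size of difference that remains possible can be read from the intervals. The 95% interval of the postpartum to virgin ratio lay wholly within 1.25-fold either way for 46 of 47 members (97.9%), and the same held for 70.0% of all annotated genes and 85.3% of annotated genes above the series median. The exception was Psma8, an alpha subunit of the testis, with low intensities and an interval of -25.8% to 13.8%. All 42 members above the series median met the bound. Only 9 of the 47 members had an interval within 1.1-fold, so changes beyond 1.1-fold remain possible for the others. The share of all genes within 1.1-fold was not computed, so this count cannot be set against it. The bounds were chosen after the values had been seen. The median standard error was 0.06 for members and 0.08 for all genes, on the log2 scale.
The median log2 fold change over the 47 members was 0.02, with a positive value in 26 (55.3%), and over all annotated genes it was -0.01, with a positive value in 47.9%. Among annotated genes above the series median, the range in which most members lie, 55.6% were positive. The sign of the member median was not stable, since it was -0.00117 after quantile normalization, 0.05 after centring of each array on its median, and -0.004 without virgin replicate 5, when 21 of 47 members were positive.

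**Figure D1:**
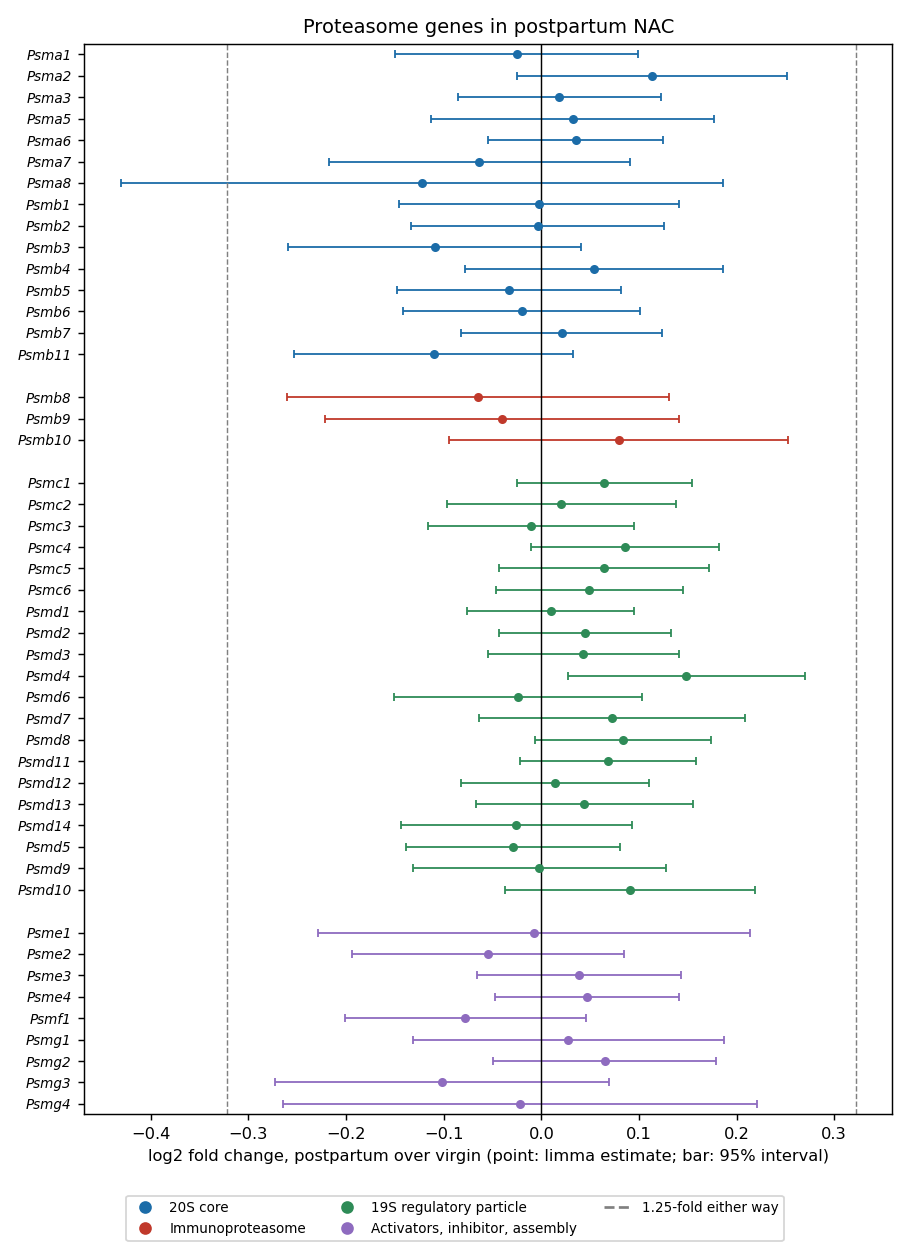
Log2 fold change, postpartum over virgin, of the 47 proteasome genes in NAC (points, limma estimates from 6 arrays per group; bars, 95% intervals; dashed lines, 1.25-fold either way). Only the Psmd4 interval leaves out 0, and only the Psma8 interval passes a dashed line. The 19S genes had 15 of 20 points above 0, a number that was 12 after quantile normalization and 20 after centring of arrays. Centring raised every fold change by the same amount. Of annotated genes above the series median, 55.6% were above 0 in the main setting.

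The alpha ring of the 20S core, which receives the 19S cap and gates the barrel, was measured by Psma1, Psma2, Psma3, Psma5, Psma6, Psma7 and Psma8. Psma2 had the largest positive value of the core. Its intensity ran from 805 to 946 (median 897) in postpartum mice and from 715 to 895 (median 828) in virgin mice, so the groups overlapped, with 3 postpartum arrays above every virgin array. The log2 fold change was 0.11 (standard error 0.06, exact permutation p = 0.0887), and it was 0.07 (exact permutation p = 0.171) without virgin replicate 5, the lowest array for this gene. Psma7 was the reverse case, with 0 of 6 postpartum arrays above the virgin median, and its value was -0.06 (exact permutation p = 0.372). Psma1, Psma3, Psma5 and Psma6 lay between -0.03 and 0.04. Psma8, which replaces another alpha subunit in the testis, had the lowest value of the core at -0.12, with the widest error of all members (0.14, exact permutation p = 0.429).

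The noncatalytic beta subunits gave no call. Psmb1, Psmb2 and Psmb4 had fold changes of -0.003, -0.004 and 0.05. Psmb3 was -0.11 (standard error 0.07, exact permutation p = 0.0801), with postpartum intensities of 951 to 1031 (median 979.9) and virgin intensities of 940.0 to 1297 (median 1043). The highest virgin value stood alone, since the other virgin arrays did not pass 1056, and without it (virgin replicate 2) the Psmb3 value was -0.05. Psmb11, the thymus catalytic subunit, was dim on these arrays (124 to 152 in postpartum and 131 to 163 in virgin mice) and had a value of -0.11 (exact permutation p = 0.106). Over the 15 core genes the median log2 fold change was -0.004, with 6 positive, but it was -0.02 after quantile normalization, 0.03 after centring and -0.04 without virgin replicate 5, so it had no settled sign. Leaving out Psma8 and Psmb11, which belong to testis and thymus, gave -0.003 over 13 genes.

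The catalytic subunits and the immunoproteasome subunits that replace them were compared side by side. Psmb5, which cuts after hydrophobic residues, gave 3599 to 4198 (median 4059.5) in postpartum mice and 3730.1 to 4377 (median 4100.4) in virgin mice. The groups lay on each other, apart from postpartum replicate 1 below the rest of its group, and the change was -2.26% (95% interval -9.72% to 5.81%, exact permutation p = 0.481).
Psmb6, which cuts after acidic residues, ran from 766 to 868 (median 861) in postpartum and from 761 to 902 (median 874) in virgin mice, a change of -1.39% (-9.36% to 7.28%, exact permutation p = 0.677). Psmb7, which cuts after basic residues, ran from 1641 to 1793 (median 1687) and from 1552 to 1792 (median 1705), a change of 1.46% (-5.55% to 8.98%, exact permutation p = 0.591). All 3 catalytic genes of the standard core thus had intervals within 10% of no change.
The immunoproteasome genes were measured less tightly. Psmb8, the counterpart of Psmb5, gave 125 to 164 (median 143) in postpartum and 132 to 176 (median 146) in virgin mice, a change of -4.41% (-16.5% to 9.45%, exact permutation p = 0.496). Psmb9, the counterpart of Psmb6, gave 97.5 to 125 (median 109) and 103 to 133 (median 108), a change of -2.77% (-14.2% to 10.2%, exact permutation p = 0.634). Both probesets lay below the series median, with standard errors of 0.09 and 0.08 on the log2 scale.
Psmb10, the counterpart of Psmb7, ran from 488 to 641 (median 581) in postpartum and from 479 to 579.9 (median 548) in virgin mice, with 3 postpartum arrays above every virgin array, and its change was 5.64% (-6.34% to 19.1%, exact permutation p = 0.342). None of the 3 passed a limma threshold, and in all 3 genes the groups overlapped. Their median log2 fold change was -0.04, and its sign was not settled. It was -0.01 after quantile normalization and also after centring, -0.004 without virgin replicate 5 and without postpartum replicate 5, and 0.005 without virgin replicate 2 or with array weights. With bright probesets only, Psmb10 alone remained, at 0.08.

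**Figure D2:**
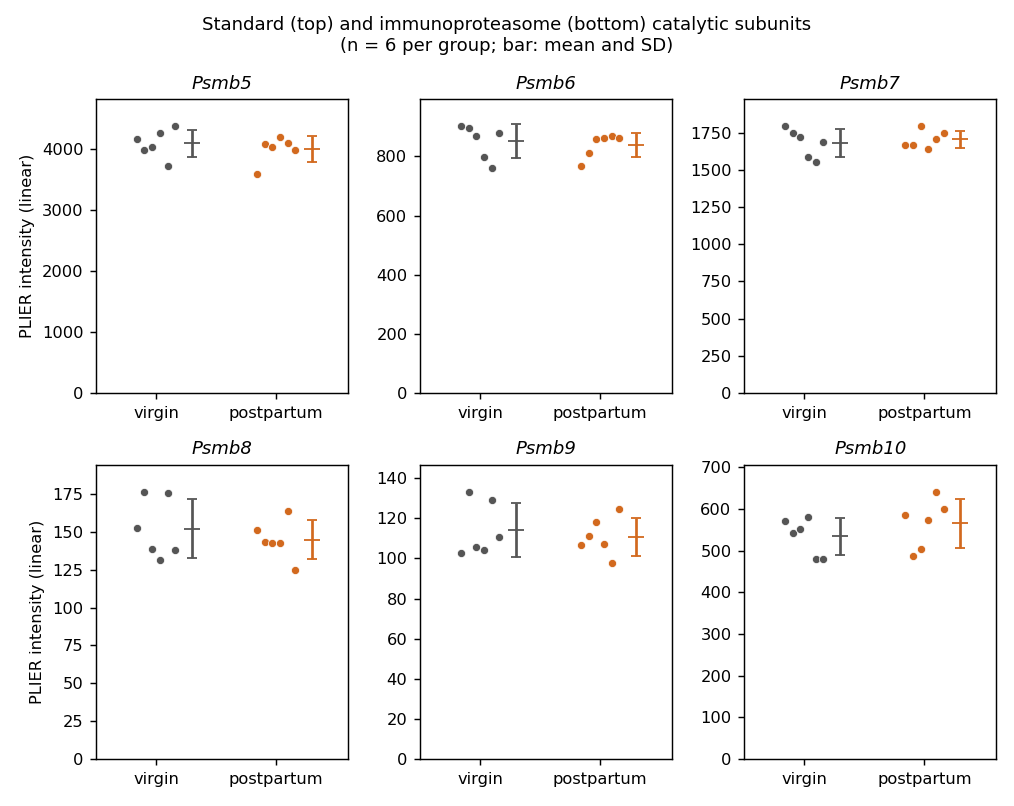
PLIER intensity on a linear axis from 0 of the standard catalytic genes Psmb5, Psmb6 and Psmb7 (top) and the immunoproteasome genes Psmb8, Psmb9 and Psmb10 (bottom) in 6 virgin and 6 postpartum arrays. Points are arrays and bars are the mean and SD. The 2 groups overlap in every panel.

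For the exchange of subunits, the log2 difference between an immunoproteasome gene and its counterpart was taken within each array and compared between groups. It differed by -0.03 for Psmb8 and Psmb5 (95% interval -0.31 to 0.24, exact permutation p = 0.781), by -0.02 for Psmb9 and Psmb6 (-0.25 to 0.20, exact permutation p = 0.855) and by 0.06 for Psmb10 and Psmb7 (-0.13 to 0.24, exact permutation p = 0.487). The adjusted p over the 3 pairs was 0.855 for each. No shift between standard and immunoproteasome transcripts was detectable with 12 arrays, and the intervals give the shifts that remain possible. After quantile normalization the first pair gave 0.01 and the second 0.03, so their signs were not settled.

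The 19S particle held the highest fold change of the members. Its 20 genes ran from -0.03 (Psmd5) to 0.15 (Psmd4) with a median of 0.04, and 15 were positive, which was 12 of 20 after quantile normalization (median 0.02), 20 of 20 after centring (median 0.08) and 12 of 20 without virgin replicate 5 (median 0.03). Centring raised the fold change of every probeset by the same amount, so its 20 of 20 is not particular to the 19S. In the main setting 55.6% of annotated genes above the series median were positive. By role, 5 of 6 ATPase genes, 9 of 11 other subunits and 1 of 3 assembly chaperones were positive. These counts are descriptions, because genes of 1 particle share the arrays and are not separate replicates.

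Psmd4 encodes a ubiquitin receptor of the 19S particle, which binds the ubiquitin chain of a substrate. Postpartum arrays gave 750.3, 790.2, 788, 796, 765 and 819 (replicates 1 to 6) and virgin arrays gave 699, 714, 811, 723, 659 and 651. All 6 postpartum values lay above the virgin median of 707, and the groups overlapped through virgin replicate 3 alone. Mean intensity was 785 ± 24.2 (SD, n = 6) in postpartum and 709.6 ± 57.7 (SD, n = 6) in virgin mice. The log2 fold change was 0.15 (standard error 0.06, 95% interval 0.03 to 0.27), which is 1.92% to 20.6% higher, with p = 0.0204 by limma and 0.0173 by exact permutation, but the adjusted p by limma over all probesets was 0.486. The call depended on single arrays and on the scaling, and it missed p under 0.03 after quantile normalization. It was also lost, at limma p of 0.0353 to 0.0469, when postpartum replicate 2, 3, 4 or 6 or virgin replicate 1, 5 or 6 was left out. Without virgin replicate 5 the fold change was 0.13, with p = 0.0458 by limma and 0.0346 by exact permutation, and without virgin replicate 3 it was 0.19 and passed p under 0.01 by limma.

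The next 3 genes are named because they passed the exact test, a choice made after their values were seen. Psmd8, a lid subunit of the 19S, ran from 2348 to 2632 (median 2444) in postpartum and from 2195 to 2414 (median 2342) in virgin mice. Of the postpartum arrays 5 lay above every virgin array. The log2 fold change was 0.08 (standard error 0.04), with p = 0.0668 by limma and 0.0130 by exact permutation.
Psmc4, an ATPase of the ring that unfolds substrates, ran from 1832 to 2016 (median 1921) in postpartum and from 1662 to 1902 (median 1821) in virgin mice. All postpartum arrays were above the virgin median and 4 were above every virgin array. Its fold change was 0.09 (standard error 0.04), with p = 0.0765 by limma and 0.0216 by exact permutation.
Psmd11, a lid subunit that holds the lid to the core, ran from 1216 to 1283 (median 1247) in postpartum and from 1099 to 1247 (median 1206) in virgin mice. The change was 0.07 (standard error 0.04, p = 0.125 by limma and 0.0281 by exact permutation). The lowest virgin value of Psmd8, Psmc4 and Psmd11 was that of virgin replicate 5, and without it the exact permutation p was 0.0260, 0.0498 and 0.0541 in that order.

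**Figure D3:**
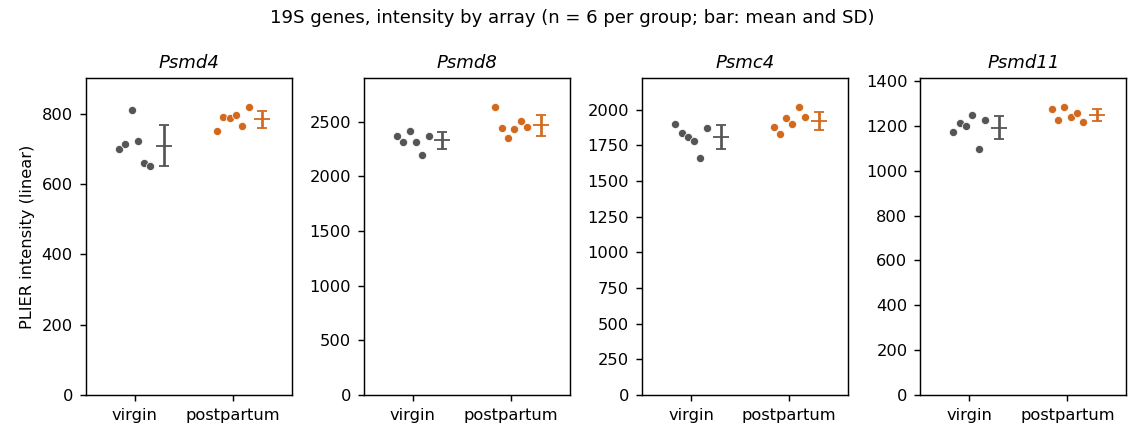
PLIER intensity on a linear axis from 0 of Psmd4, Psmd8, Psmc4 and Psmd11 in 6 virgin and 6 postpartum arrays (points; bars are the mean and SD). Every postpartum point lies above the virgin median of its gene, and the groups overlap in all 4 panels. The genes are shown because they passed the exact permutation test, so their separation comes with that choice.

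The other 19S genes passed p under 0.05 by neither test. The ATPase genes Psmc1, Psmc5, Psmc6 and Psmc2 had values of 0.06, 0.06, 0.05 and 0.02, and Psmc3 had -0.01. Psmd1 and Psmd2, the scaffolds of the base, had 0.01 and 0.04. Psmd14, the deubiquitinase that removes the chain before degradation, was -0.03 (95% interval -0.14 to 0.09), and Psmd6, a lid subunit, was -0.02. Psmd3, Psmd7, Psmd12 and Psmd13, also of the lid, lay between 0.01 and 0.07. Among the chaperones of base assembly, Psmd10 (gankyrin) was 0.09 (exact permutation p = 0.128), Psmd9 was -0.002 and Psmd5, the lowest 19S gene, was -0.03 (exact permutation p = 0.494). None of these 16 genes passed p under 0.1 by limma.

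The activators and the inhibitor bind the ends of the core in place of the 19S cap. Psme1 and Psme2, the interferon-inducible PA28 activator, gave 563 to 697 against 494 to 788 and 308 to 369.5 against 325 to 397 (postpartum against virgin), with fold changes of -0.01 (exact permutation p = 0.948) and -0.05 (exact permutation p = 0.394). The Psme1 interval of -14.6% to 16% was, after that of Psmg4, the widest of the 42 bright members. Psme3, the nuclear activator, was 0.04 (exact permutation p = 0.340) and Psme4, also an activator of the nucleus, was 0.05 (exact permutation p = 0.197).
Psmf1, an inhibitor of the isolated core, ran from 494 to 580.3 (median 542) in postpartum and from 524 to 617 (median 572) in virgin mice, a value of -0.08 (exact permutation p = 0.158). Among the chaperones that pair and assemble the core rings, Psmg2 had the highest value of this group at 0.06 (exact permutation p = 0.212) and Psmg3 the lowest at -0.10 (exact permutation p = 0.236), with Psmg1 at 0.03 and Psmg4 at -0.02. Over these 9 genes the median was -0.01 with 4 positive, and it was 0.01 after quantile normalization, 0.03 after centring and -0.02 without virgin replicate 5, so it had no settled sign.

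Second probesets existed for Psma5, Psmc2 and Psmg2, and gave 0.13, 0.04 and 0.01 (exact permutation p of 0.827, 0.617 and 0.942). Probesets that the annotation assigns to Psma4 and another gene together were not used, so Psma4 was not analysed here. Psmc3ip and Psme3ip1, the matches that are not proteasome genes, gave -0.04 (exact permutation p = 0.636) and 0.05 (exact permutation p = 0.195).

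Variation within the groups was shared in part by the members, and less so without virgin replicate 5. With group means removed, the median pairwise Pearson correlation over 12 arrays was 0.43 among the 20 genes of the 19S, 0.40 among 12 bright core genes and 0.31 between the 2 structures. Bright members correlated with other bright genes at a median of 0.09. Without virgin replicate 5 these 4 values were 0.27, 0.27, 0.09 and 0.07 over 11 arrays. Among all 42 bright members the median correlation was 0.32 with that array and 0.15 without it. The points share the array, its labelling and its normalization, so these numbers are given as descriptions.
In virgin replicate 5 the mean deviation from each gene's 12-array mean was -0.11 over the 19S, -0.08 over the core and -0.09 over the activators, while it was 0.09 over the 3 immunoproteasome genes. It lay below the mean in 18 of 20 genes of the 19S. Postpartum replicate 5 lay at the other end, at or above the mean in all 20 genes of the 19S, and it gave the highest value for 11 of the 42 bright members (26.2%, against 12.4% of all bright genes). What sets these arrays apart was not tested.

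**Figure D4:**
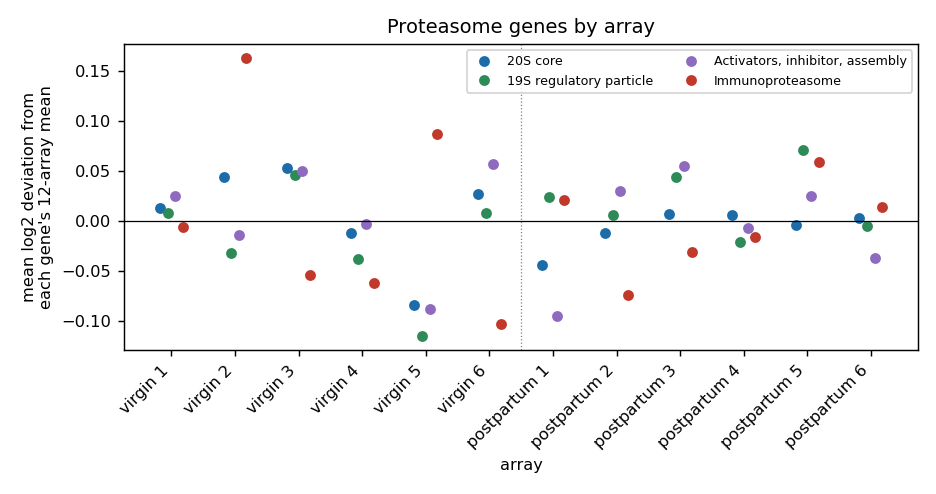
Mean log2 deviation of each group of proteasome genes from each gene's 12-array mean (vertical axis) in every array (horizontal axis, virgin then postpartum). Virgin replicate 5 is the lowest array for the 19S (-0.11), the 20S core (-0.08), and for the immunoproteasome it lies above 0 (0.09).

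Genes that feed the proteasome were taken from lists of the pathway. Of 10 measured partners outside the Psm names, 0 passed p under 0.05 by limma and 0 by exact permutation. Among all genes 5.22% were higher and 4.70% lower by limma, and 6.56% and 4.89% by exact permutation. Usp14, a deubiquitinase bound to the 19S, was 0.02 (exact permutation p = 0.593), Uchl5, another such enzyme, was 0.11 (p = 0.121), and Pomp, which matures the core, was 0.09 (p = 0.323). The median of the 10 was 0.03. Of 10 shuttle factors and unfoldase genes, 0 passed p under 0.03 by limma, 1 was higher and 1 lower at p under 0.05 by limma (5.22% and 4.70% of all genes), and 2 were higher and 1 lower by exact permutation (6.56% and 4.89% of all genes). Ubqln4, a ubiquilin shuttle, was 0.11 (exact permutation p = 0.0173), its relative Ubqln1 was 0.04 (exact permutation p = 0.0130), and Ufd1, a cofactor of the unfoldase Vcp, was -0.14 (exact permutation p = 0.0390).
Ubiquitin is activated by an E1 enzyme, and Uba6, the only gene measured of 6 on that list, rose, as 1.72% of all genes did. Its intensities were 965 to 1087 (median 1046) in postpartum and 829 to 1010.2 (median 916) in virgin mice. The log2 fold change was 0.18 (standard error 0.05), with p = 0.00529 by limma, an adjusted p of 0.391 by limma and an exact permutation p of 0.00649.
On the list of the NRF1 axis, 8 of 9 genes were measured and 1 rose at limma p under 0.01, against 1.72% of all genes. Mafg, a small Maf partner of NRF1 and NRF2, gave 395 to 453 (median 421) in postpartum and 337 to 411 (median 370.3) in virgin mice, a fold change of 0.20 (standard error 0.06) with p = 0.00409 by limma, adjusted p of 0.376 by limma and exact permutation p of 0.00433. Nfe2l1 itself, the gene of NRF1, was -0.01 (exact permutation p = 0.680), and Nfe2l2, the gene of NRF2, was 0.16 (exact permutation p = 0.0368).
Of 10 measured genes of antigen presentation and interferon, which share regulation with the immunoproteasome, 0 were higher at p under 0.05 by limma or exact permutation (5.22% and 6.56% of all genes), and 1 was lower at p under 0.03 by limma (2.89% of all genes). That gene was Irf1, an interferon-responsive transcription factor, at -0.15 (p = 0.0247 by limma, exact permutation p = 0.0173). Tap1, the peptide transporter encoded beside Psmb9, was -0.07 (exact permutation p = 0.227), and B2m, the light chain of MHC class I, was -0.07 (exact permutation p = 0.123). Over 11 measured markers of microglia, cells that can make such transcripts, the median was -0.002. C1qb was 0.40 (exact permutation p = 0.00433), C1qa was 0.26 (exact permutation p = 0.0130) and P2ry12 was -0.23 (exact permutation p = 0.00866). C1qb and P2ry12 were the 2 that passed p under 0.03 by limma, at which 3.68% of all genes were higher and 2.89% lower. The summed intensity of the list was 5609.8 to 7076 in postpartum and 5553 to 6335 in virgin arrays. The part of microglia in the immunoproteasome values was not tested.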

How the data were processed

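RNA of each of the 12 mice was hybridised to its own array, and groups and replicate numbers were taken from the submitters' labels. The authors deposited PLIER intensities per probeset on a linear scale, normalized between arrays. The article names Expression Console for this step, and the submitters' processing notes name Affymetrix Power Tools 1.12.0. Scanner values were not used here.

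Values under 1 were set to a floor of 1 and the log2 was taken of each deposited intensity. The groups were fitted over 41345 probesets in R 4.3.3 by lmFit and eBayes of limma 3.58.1, with no variance trend and Benjamini-Hochberg adjustment over all of them. Thresholds were an unadjusted p under 0.01, at which a gene is said to have risen or fallen, and under 0.03, with 0.05 for description. Exact permutation tests were two-sided. The code was tested on simulated data. The members, the gene lists and the lists of promoter strings were chosen with earlier results of these data known. Members named in the text were those with p under 0.03, the catalytic and immunoproteasome pairs, the activators and the inhibitor, and the highest and lowest value of each structural group, with others named in counts. The values depend on the number of arrays, which limits the precision, and no depth applies.

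Each virgin mouse was collected on the day of a postpartum mouse, but the labels do not say which. The replicate numbers were therefore not used as pairs in the main fit. The deviations of same-numbered arrays correlated at -0.111 to 0.0668 over 6 pairs, and whether these shared a collection day was not tested. Alternatives were linear intensities, quantile normalization, a pseudocount of 16, array medians set equal, bright probesets only, array weights, eBayes with a variance trend or robust, the replicate number as a block, a gene's probesets averaged and each array left out. A run without Psma8 and Psmb11, the repeats of the exact test and the values without virgin replicate 5 across all members were added after the data had been seen. All 12 strings searched in promoter windows are given in the report.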

Additional observations from a re-analysis of the deposited data

Results flagged for a closer look

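In 5 of 94 groups of 6 arrays, 1 array stood far from the other 5 of its group for a single gene, and chance marks about 1 group in 20 in this way. Psma1 was 1583 in postpartum replicate 6, where the other postpartum arrays gave 1321 to 1398. Psmb3 was 1297 in virgin replicate 2, where the others gave 940.0 to 1056. Psmb5 was 3599 in postpartum replicate 1, where the others gave 3981 to 4198. Psmc3 was 765 in postpartum replicate 4, where the others gave 841 to 879. Psmd6 was 767 in postpartum replicate 5, where the others gave 613 to 653. None of the 5 genes passed p under 0.05 by limma, and the 5 values came from 5 different arrays.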

How the results depend on the processing

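The count of members higher at limma p under 0.03, which was 1, became 0 after quantile normalization and 0 with the replicate number as a block, 3 on linear intensities (Psmc4, Psmd4 and Psmd8) and 2 with a variance trend (Psmd4 and Psmd8). It ran from 0 to 1 when arrays were left out in turn. The count at p under 0.01 ran from 0 to 1, with Psmd4 alone passing without virgin replicate 3 (log2 fold change 0.19). The labels do not say whether the replicate numbers pair the samples. With the block the lowest member p by limma was 0.0438, and 2 of 6 postpartum arrays correlated best with the virgin array of their own number. The count of members higher by exact permutation p under 0.05, which was 4, was 7 after centring and ran from 3 to 8 when arrays were left out, with 8 without virgin replicate 3. Shares of all genes were computed for the main setting only, so none stands beside the counts of the other settings. Results keeping their side of the threshold or staying within replicate spread numbered 1278, against 1 that became stronger and 14 that moved. The 0 labelled reversed or weakened carry no information. No single member or pair was under p of 0.01 in the main setting, so none could weaken. A change of sign with p at or above 0.01 was counted as kept. With arrays left out in turn the median log2 fold change ran from -0.004 to 0.03 over all members, from -0.04 to 0.01 over the 20S, from -0.07 to 0.01 over the immunoproteasome, from 0.03 to 0.06 over the 19S and from -0.03 to 0.02 over the activators. Centring moved the median of all probesets from -0.01 to 0.02. Pair differences were not refitted on linear intensities, with other variance models, weights or the block, and Psmb8 and Psmb9 pairs could not be given for bright probesets only. The number of arrays limits what could be seen, and standard errors were widest for Psma8 (0.14), Psmg4 (0.11) and Psme1 (0.10) among the members.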
